A study of Mus musculus with 8 samples.

Results

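Receptors of the common gamma chain cytokines, with those of interleukin-10 and interleukin-12, were followed in CD8 memory T cells of aged mice. The set was chosen by name and comprised 10 genes, of which 9 have probe sets in the platform annotation. Their 17 probe sets were read among 45101 on the array, where the annotation names 18194 single genes in all. The gene of the common gamma chain itself, Il2rg, has no named probe set in the annotation used here and was not analysed here. The study purified age-associated clonal expansions, populations that descend from 1 T cell and can take over much of the CD8 memory pool with age. From each of 4 female mice an expansion and a polyclonal memory sample were hybridised to 1 Affymetrix whole-genome mouse array each, which gave 8 arrays. The animals were aged 20 months (mice 1 and 2) or 23 months (mice 3 and 4). The strain was C57BL/10SnJ in mice 1 to 3 and B10.BR in mouse 4.

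All samples were sorted from pooled spleen and lymph nodes as CD8+ CD122+ MHC II- cells. CD122 is the protein of Il2rb, so both groups were selected on a product of the gene set. Expansions 1 to 4 carried the T cell receptor chains Vb3, Vb8.1/8.2, Vb8.3 and Vb14, and each polyclonal sample lacked the chain of its partner. Each expansion was taken by its chain as a clonal expansion and stands for 1 animal. Whether it held a single clone was not tested here. By the sample descriptions, expansion 1 is alpha4-high for integrin alpha4, whereas expansions 2, 3 and 4 are alpha4-low. Sort purity was 91, 95, 96 and 98% in expansions 1 to 4. It was 97, 75, 66 and 97% in their polyclonal partners.

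The common gamma chain pairs with other chains that differ between its cytokines, though IL-2 and IL-15 share Il2rb. The complex signals through the kinases JAK1 and JAK3 to STAT proteins. IL-7 and IL-15 are the cytokines best known for keeping memory CD8 T cells alive and slowly dividing. The IL-7 receptor is built from Il7r and the common chain, and the IL-15 receptor of a T cell from Il2rb and the common chain, with IL-15 mostly presented by Il15ra on a neighbouring cell. IL-10 and IL-12 use other receptor pairs and signal mainly through STAT3 and STAT4.

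Labels and cell identity were checked first. Itga4, the gene behind the subclass names, read 11824 in expansion 1 and between 120 and 435 in the other expansions. Of 10 CD8 T cell markers 9 were measured, all above background on at least 1 array, and Cd8a read between 13073 and 30815. Background was set on each array as the 95th percentile of 27 bacterial control probe sets, and lay between 33.7 and 61.9. Between 22050 and 30498 probe sets per array were above it. The 8 arrays form 4 pairs, 1 per mouse, and the mouse is the unit of replication. The array of expansion 4 alone has a different scanner record, and an effect of the scan cannot be told apart from that sample.

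No receptor probe set passed the test in any comparison. Of the 17 probe sets 12, from 8 genes, were bright enough to be tested. Over all 4 pairs 0 of the 12 were called, 0 higher and 0 lower, as were 0% of the 22518 probe sets tested (limma, mouse as block, adjusted p = 0.9998 for each of the 12). At an unadjusted p under 0.05 the count was 0 of 12, against 3.25% of all probe sets. The median log2 difference of expansion minus polyclonal was -0.18 over the 12, against -0.04 over all probe sets tested. In the alpha4-low pairs 0 of 12 were called higher and 0 lower, against 0.00444% and 0.0488% of all (0.0533% together), and 1 of 12 had an unadjusted p under 0.05, against 5.11%. Their median difference there was -0.35, against -0.07 over all. For the difference between subclasses 0 of 12 were called higher and 0 lower (0.0311% and 0.0222% of all, 0.0533% together), with 1 of 12 at an unadjusted p under 0.05 (6.57% of all). The 95% intervals of the all-pairs differences were between 1.03 and 2.998 log2 units wide, and all of them included 0, so a missed threshold does not show that these genes were equal in the groups.

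**Figure D1:**
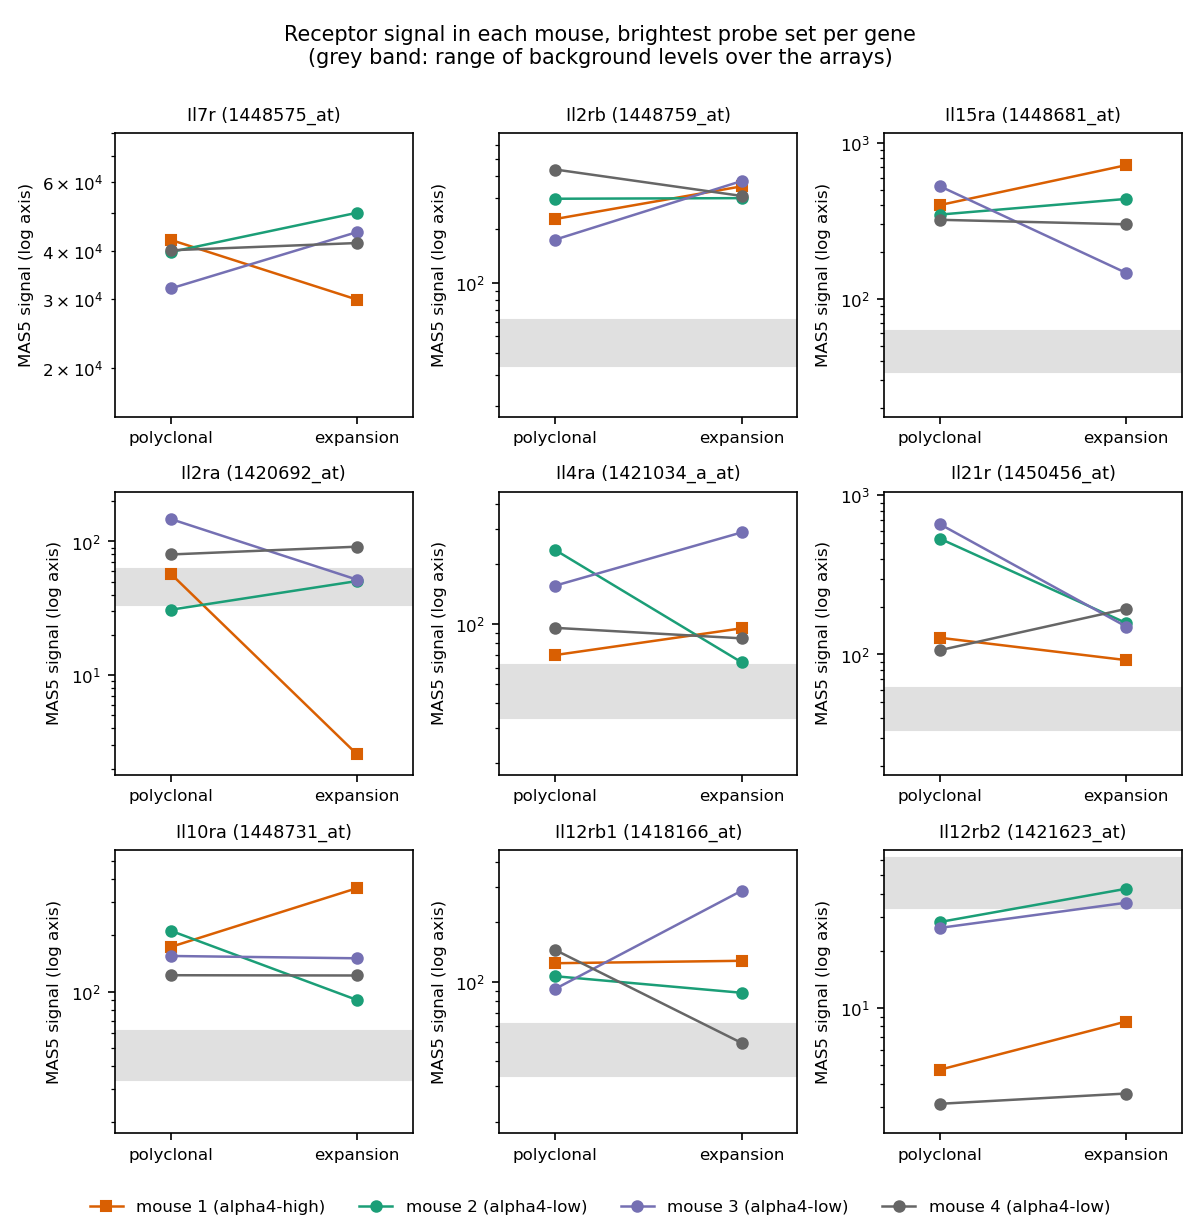
MAS5 signal (log axis) of the brightest probe set of each of the 9 measured receptor genes, with a line joining the polyclonal sample and the expansion of each mouse. Il7r lay between 29918 and 50018 on all 8 arrays, whereas Il12rb2 was above the background of its array in no sample and Il2ra in 4 of 8 (grey band, background levels of 33.7 to 61.9).

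Il7r encodes the IL-7 receptor alpha chain, a marker of long-lived memory cells. On its brighter probe set, expansions 1 to 4 read 29918, 50018, 44606 and 41813, and their polyclonal partners 42604, 39645, 31944 and 40056. The gene was thus among the brightest in every sample, between percentiles 99.5 and 99.9 of the array. Across the 8 arrays the highest value was 1.67 times the lowest, and expansion 1 had the lowest of all. The mean was 41589 ± 8493 (SD, n = 4) in the expansions and 38562 ± 4602 (SD, n = 4) in the polyclonal samples. The fitted log2 difference was 0.09 (95% interval -0.42 to 0.61, limma adjusted p = 0.9998), which differed in sign under quantile normalization (-0.15). In pair 1 the difference was -0.51, and in the alpha4-low pairs it was 0.33, 0.48 and 0.06.

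The alpha4-low expansions all read above their own 3 partners on this probe set, without overlap. Such a separation was seen for 1 of the 12 receptor probe sets and for 8.1% of all probe sets. The fitted difference there was 0.29 (95% interval -0.32 to 0.90, limma adjusted p = 0.989). Against the alpha4-high pair the difference of differences was 0.80 (95% interval -0.42 to 2.02, limma adjusted p = 0.977). Neither passed the test.

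The second Il7r probe set ran the other way. Expansions 1 to 4 read 3377, 6375, 3762 and 5140, and the partners 5187, 8784, 5706 and 5600. Every expansion was below its own partner, though the groups overlapped. Expansion minus polyclonal gave a log2 difference of -0.45 (95% interval -1.05 to 0.15, limma adjusted p = 0.9998). It was the only 1 of the 12 receptor probe sets with the same sign in 4 of 4 pairs, a pattern seen in 10.8% of all probe sets (higher in 4.79%, lower in 6.05%). The probe sets of Il7r therefore give no common direction, and their mean difference was -0.18. Why they differ was not tested.

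The RefSeq promoter table holds 7 of the 10 genes. The sequence before the first annotated base of Il7r is shown because this gene was the brightest of the set on every array, together with those of Il4ra and Il21r, neighbours on chromosome 7 whose signals are set side by side further on. Capitals mark the letters GGAA or, on the other strand, TTCC, the core bound by Ets family factors. The build is GRCm38.p6. The Il7r window is chr15:9529942-9530126 on the minus strand, that of Il4ra chr7:125552021-125552270 and that of Il21r chr7:125603179-125603251, both on the plus strand.
Il7r: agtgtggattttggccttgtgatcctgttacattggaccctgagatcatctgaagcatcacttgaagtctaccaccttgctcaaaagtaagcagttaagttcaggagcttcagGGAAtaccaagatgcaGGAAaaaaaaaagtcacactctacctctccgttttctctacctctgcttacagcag
Il4ra: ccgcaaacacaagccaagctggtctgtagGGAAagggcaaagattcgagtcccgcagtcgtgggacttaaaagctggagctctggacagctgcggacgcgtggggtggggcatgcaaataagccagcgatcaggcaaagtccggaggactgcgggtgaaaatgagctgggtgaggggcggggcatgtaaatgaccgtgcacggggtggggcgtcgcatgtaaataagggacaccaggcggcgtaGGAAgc
Il21r: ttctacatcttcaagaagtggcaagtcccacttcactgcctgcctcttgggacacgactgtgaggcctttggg
The Il7r window of 185 bases held 2 matches, and 87.2% of the windows of that length from 32851 listed promoters hold at least 1. The Il4ra window of 250 bases held 2, where 93.4% of windows hold at least 1, and the Il21r window of 73 bases held 0, where 55.6% do.

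Among factors known to act on the receptor genes, Gabpa and Ets1, both of the Ets family, and Foxo1, which sustains Il7r in T cells, were measured. Gabpa had a log2 difference of 0.31 over all pairs, Ets1 one of -0.15 and Foxo1 one of -0.14, with a limma adjusted p of 0.9998 for each. Other probe sets of Gabpa and Ets1 gave differences of -0.17 for Gabpa and from -0.43 to -0.15 for Ets1. Those of Foxo1 gave -0.75 (lower in 4 of 4 pairs, limma adjusted p = 0.9998) and 0.15. Ets1 on its brightest probe set differed by -0.38, 0.47, -1.95 and 1.27 in pairs 1 to 4, so the pairs did not share a sign. Gfi1, which represses Il7r, had a difference of -0.22.

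Il2rb, the signalling chain shared by the IL-2 and IL-15 receptors, read 350.5, 301, 376 and 309.5 in expansions 1 to 4. The polyclonal samples read 229, 298, 175 and 436.5. The expansions were closely spaced and lay within the range of the polyclonal samples. The log2 difference was 0.30 (95% interval -0.51 to 1.11, limma adjusted p = 0.9998), and since the protein served for sorting this level is no independent finding. Pair 4 had a negative difference (-0.49) and pair 3 the highest (1.08). The other Il2rb probe set was too dim to be tested, and was above background in 3 expansions and 1 polyclonal sample. NK cells also carry CD122, and 6 measured NK cell markers summed to between 6958 and 20282 in expansions and between 9261 and 37223 in polyclonal samples. The sum was highest in polyclonal sample 4, where Il2rb was highest too. The second highest sum, 31411 in polyclonal sample 2, went with an Il2rb signal of 298, below all 4 expansions. Of these markers 4 were bright enough to be tested. In the alpha4-low pairs all 4 had negative log2 differences, down to -3.90, with a median of -1.35 (lowest limma adjusted p = 0.0528). The median over all probe sets was -0.07. Over all pairs 2 were positive and 2 negative, down to -3.68, with a median of -0.76 (lowest limma adjusted p = 0.147). The part of NK cells in the Il2rb values was not tested.

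Il15ra encodes the chain that binds IL-15 with high affinity. Its brighter probe set read 720, 437, 147 and 301 in expansions 1 to 4 and 400, 347, 528 and 321 in the partners. Expansion 1 was the highest of the 8 arrays and expansion 3 the lowest. The fitted log2 difference was -0.18 (95% interval -1.15 to 0.79, limma adjusted p = 0.9998), with 0.84 in pair 1 and 0.33, -1.81 and -0.09 in pairs 2 to 4. It was 0.36 without pair 3, so that 1 pair set its sign. On the dimmer probe set expansion 3 read 76.5 against 68.7 in its partner, so the low value of expansion 3 was not seen there, whereas expansion 4 read 21.5, under background, against 71.0.

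Il2ra, the IL-2 receptor alpha chain CD25 of activated and regulatory T cells, was close to background. Its tested probe set read 2.56, 50.6, 51.8 and 91.5 in expansions 1 to 4 and 57.5, 30.9, 147 and 79.96 in the partners. It was above background in 1 expansion and in 3 polyclonal samples, so sizes at this level are not exact. Expansion minus polyclonal gave a log2 difference of -0.91 (95% interval -2.41 to 0.59, limma adjusted p = 0.9998) It was -0.20 without pair 1, whose own difference of -3.05 rests on the value of 2.56, under background.. Both Il2ra probe sets were highest in polyclonal sample 3, the untested one at 102. That sample also had the highest summed signal of the 4 CD4 and regulatory T cell markers, 419 against a range of 181 to 345 on the other arrays. Its Foxp3, the regulatory T cell factor, read 119, its Cd40lg 130.5 and its Cd4 101, each the highest of the 8 arrays. Zbtb7b, the CD4 lineage factor of the same list, was at its lowest there, at 68.6 against 88.6 to 175.6 elsewhere. The part of such cells in the Il2ra value was not tested.

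Il4ra, the IL-4 and IL-13 receptor alpha chain, had disagreeing probe sets. The brighter read 95.0, 64.2, 287 and 84.6 in expansions 1 to 4 and 69.8, 234, 155 and 95.5 in the partners. Expansion 3 was the highest and expansion 2 the lowest, and the groups overlapped. The log2 difference was -0.17 (95% interval -1.23 to 0.89, limma adjusted p = 0.9998). The dimmer tested one read 13.3 in expansion 1, under background, against 172 in its partner. In the alpha4-low pairs it read 78.2, 343 and 166 against 192, 119 and 119. It had the lowest unadjusted p of the 12 receptor probe sets for the difference between subclasses, with a difference of differences of 3.51 (95% interval 1.12 to 5.90, unadjusted p = 0.00751), but did not pass over all probe sets (limma adjusted p = 0.442). On the brighter probe set the same quantity was -0.78 (95% interval -3.15 to 1.58, limma adjusted p = 0.9997), so the 2 probe sets had opposite signs. The identifier of the dimmer one marks probes that can also match other transcripts.

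Il21r encodes the receptor chain for IL-21, a cytokine of helper T cells. It read 92.2, 158, 150 and 193 in expansions 1 to 4 and 127, 534.5, 659 and 106 in the polyclonal samples. Polyclonal samples 2 and 3 stood well above the other 6 arrays, whose range was 92.2 to 193. These are also the 2 samples of 75 and 66% purity, while the other 6 were between 91 and 98% pure. The arrays of polyclonal samples 2 and 3 also had the most probe sets above background, 28612 and 30498. Their median signals, 74.0 and 72.2, were exceeded only by that of expansion 3 (75.1). The log2 difference over all pairs was -0.86 (95% interval -1.93 to 0.21, limma adjusted p = 0.9998), the lowest unadjusted p of the 12 at 0.104. It was -1.73 and -2.10 in pairs 2 and 3, but -0.45 in pair 1 and 0.83 in pair 4. With sort purity as a covariate the difference was -0.11, and without pairs 2 and 3, left out after the data were seen, it was 0.19. Low purity and high signal fall on the same 2 samples. Purity therefore cannot be told apart here from any other trait of them, and its part was not tested. In the alpha4-low pairs the difference was -0.9988 (limma adjusted p = 0.967). With purity as a covariate it was 0.796, with a 95% interval that began at -0.97 and included 0 (limma unadjusted p = 0.377). The alpha4-low difference without the covariate was -1.91 without pair 4 and -0.45 without pair 3, and the all-pairs value was -1.43 and -0.45 without the same pairs.

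In mixed or incompletely pure samples, more cells of a type and more RNA per cell cannot be told apart. The 8 measured B cell markers, a cell type that uses Il21r and Il4ra, summed to 4607 in polyclonal sample 2 and to 2268 in polyclonal sample 3. These were the highest and the lowest sums of the 8 arrays, and Cd22 was the largest single part of both, with 3385 and 1027. Cd79a, a B cell receptor subunit, was highest in just these samples, at 148 and 93.8 against 24.4 to 74.8 elsewhere. Cd79b read 249 and 235 in them and up to 252 elsewhere. The part of B cells in the Il21r value was not tested. The summed range was 2268 to 4607 in polyclonal samples and 3144 to 4304 in expansions, and no measured marker was at 0. Il4ra, 23.8 kb from Il21r with no protein-coding gene between them, read 234 and 155 in the same 2 samples, within the range of the other 6 arrays (64.2 to 287).

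**Figure D2:**
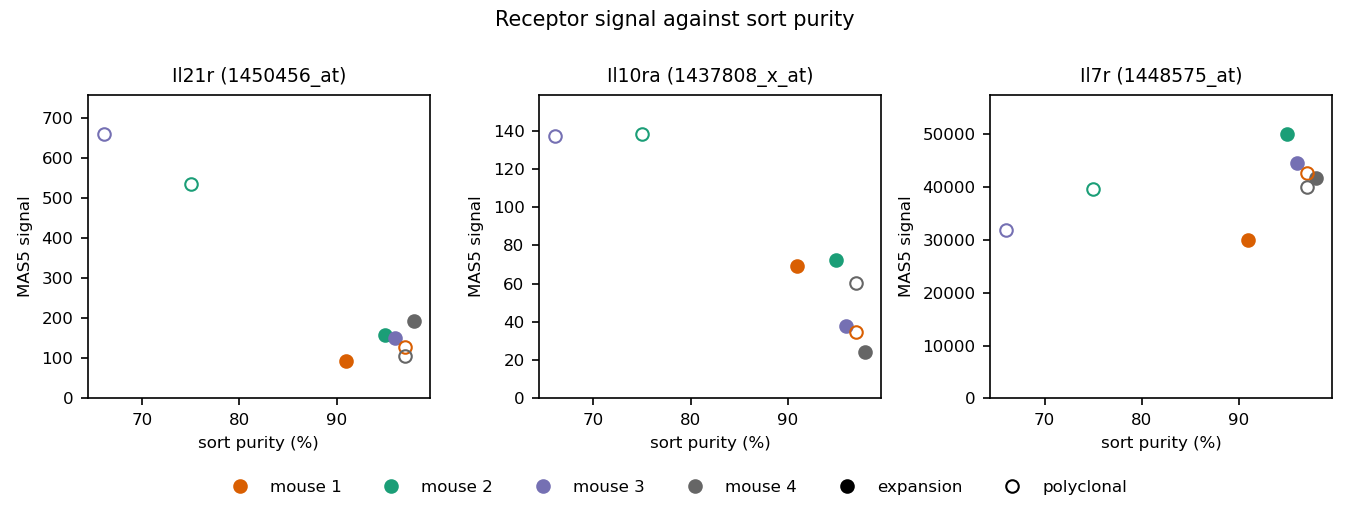
MAS5 signal of Il21r, the dimmer Il10ra probe set and the brightest Il7r probe set against sort purity in percent, with filled points for expansions and open points for polyclonal samples. Il21r read 534.5 and 659 in the 2 samples under 80% pure and 92.2 to 193 elsewhere, Il10ra read 138 and 137 against 24.4 to 72.5, and Il7r in those samples lay within the range of the others.

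Il10ra encodes the ligand-binding chain for the suppressive cytokine IL-10. On its brighter probe set expansions 1 to 4 read 358, 90.3, 151 and 122, and the partners 173.5, 212, 155 and 122.5. Expansion 1 was the highest array, and pairs 3 and 4 barely differed. The fitted log2 difference was -0.05 (95% interval -0.97 to 0.87, limma adjusted p = 0.9998), and 0.33 without pair 2. The dimmer tested probe set read 69.1, 72.5, 37.8 and 24.4 in expansions and 34.8, 138, 137 and 60.3 in the partners. It was above background on 5 of 8 arrays. In the alpha4-low pairs its difference was -1.26 (lower in 3 of 3 pairs), the only receptor probe set under an unadjusted p of 0.05 there (0.04996, limma adjusted p = 0.966). As with Il21r, polyclonal samples 2 and 3 had its highest values, but its identifier too marks probes that can match other transcripts. On the brighter probe set the same samples read 212 and 155, within the range of the other 6 arrays (90.3 to 358). The purity of those samples moved with it, as did their count of probe sets above background, and the part of either was not tested.

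The IL-12 receptor is a pair of Il12rb1, which IL-23 also uses, and Il12rb2, which couples to STAT4. Il12rb1 read 128, 88.3, 286 and 49.6 in expansions 1 to 4 and 124, 107, 92.4 and 145 in the partners. Expansion 3 was the highest array and expansion 4 the lowest, with the 4 polyclonal samples between them. Expansion minus polyclonal gave a log2 difference of -0.02 (95% interval -1.12 to 1.07, limma adjusted p = 0.9998) and turned positive under quantile normalization (0.03). It rested on opposite values of 1.58 in pair 3 and -1.46 in pair 4. Il12rb2 was not above background on any array. Its signals were between 3.13 and 42.4, and it was not tested.

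**Figure D3:**
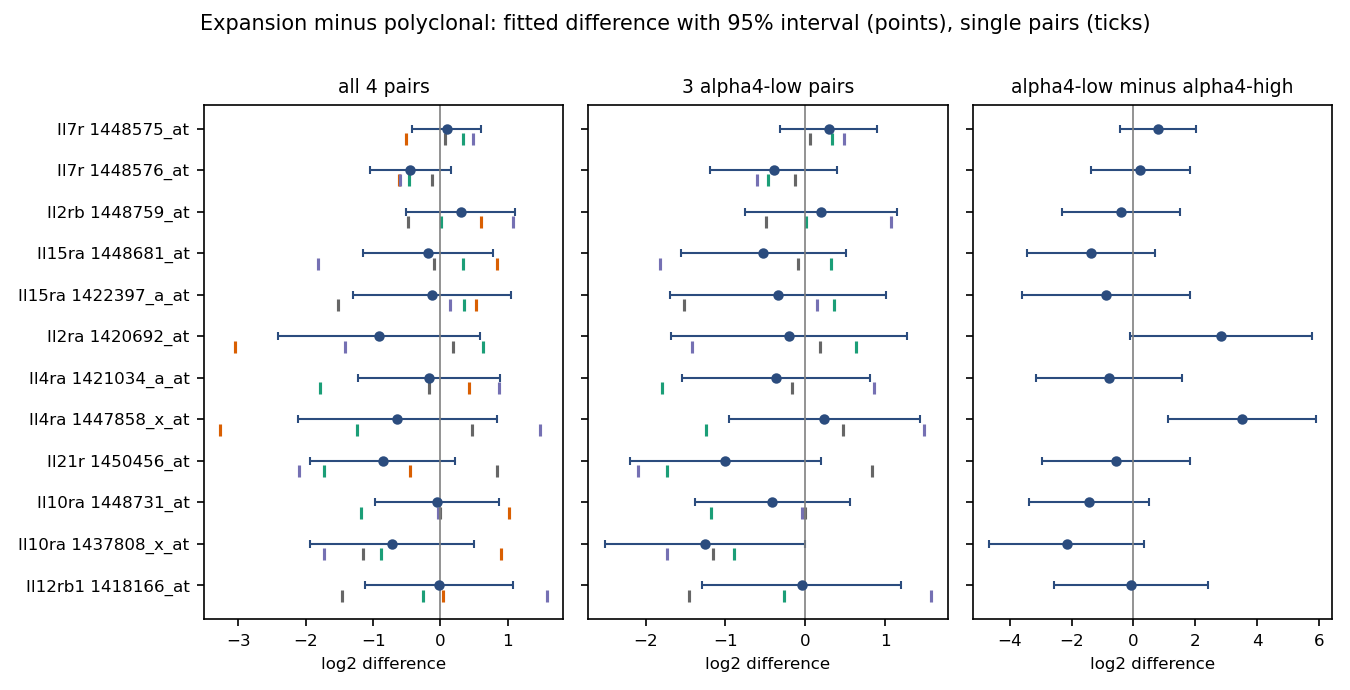
Fitted log2 difference of expansion minus polyclonal (points) with 95% intervals for the 12 tested receptor probe sets in the 3 comparisons, with ticks for single pairs in the first 2 panels (colours as in the plot of signals by mouse). Intervals include 0 except for the dimmer Il4ra probe set in the third panel (1.12 to 5.90) and the dimmer Il10ra one in the second, whose upper end lies just under 0, and none of the 12 passed after adjustment.

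On the brightest tested probe sets the SD of the 4 pair differences ran from 0.44 for Il7r to 1.33 for Il21r and 1.67 for Il2ra, the last resting on a value under background. Probe sets of like brightness were not compared. Pair 1 lay opposite to all alpha4-low pairs for 3 of the 12 receptor probe sets, a pattern found in 14.2% of all probe sets. The 3 alpha4-low pairs shared a sign for 4 of the 12, where 25% of all probe sets did. Of these 4, 1 was higher (9.99% of all) and 3 were lower (15% of all). The 4 expansions and the 4 polyclonal samples did not overlap for 0 of the 12, against 1.35% of all.

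Other cytokine receptor chains, also those of IL-6, IL-18 and the interferons, were followed in a list of 13 genes. Of these, 11 were tested. None passed in any comparison, with 0 higher and 0 lower in each. Their median was -0.26 over all pairs (-0.04 over all probe sets) and -0.14 in the alpha4-low pairs (-0.07). For the difference between subclasses, which rests on 1 alpha4-high pair, it was 0.80 (-0.10). Il18r1, the IL-18 receptor chain of memory T cells, came closest to the threshold. Its signal was 3504 in expansion 1, where the partner had 26651. The alpha4-low expansions had 47644, 46672 and 42422, and their partners 36010, 24252 and 30169. Expansion 1 was thus far below the other 7 arrays. The difference of differences was 3.54 (limma adjusted p = 0.0659). Crlf2, which pairs with Il7r for the cytokine TSLP, read between 2455 and 5122 on all arrays, with an all-pairs difference of 0.08. Il10rb, the partner of Il10ra, differed by -0.07. Il6st, the signalling chain gp130 of the IL-6 family, had a difference of -1.16 (unadjusted p = 0.0223, limma adjusted p = 0.9998), but another probe set gave -0.12.

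The cytokine genes themselves were dim in these sorted cells. Of 12 ligand genes 5 were tested and none passed (0 higher, 0 lower in each comparison). Il21 had a log2 difference of -1.31 in the alpha4-low pairs (limma adjusted p = 0.963), lower in 3 of 3, and 0.94 in pair 1. Il7 and Il15, made mainly by stromal and myeloid cells, varied without a common sign. Il15 read 358 and 312 in expansions 1 and 4, and 25.7 and 38.9 in expansions 2 and 3. The myeloid and dendritic cell markers summed to 6472 and 9497 in expansions 1 and 4 and to 9144 and 2297 in expansions 2 and 3, so that the high sum of expansion 2 went with a low Il15 signal. That list ranged from 2251 to 6951 in polyclonal samples, and its part was not tested.

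Of 10 kinases and STATs downstream 9 were measured and 8 tested, and none passed (0 higher, 0 lower in each comparison). Their all-pairs median was -0.16, against -0.04 over all probe sets. Jak1, the kinase common to these receptors, read between 7717 and 19638, and its all-pairs difference was -0.16. Stat4, the transducer of IL-12, had one of -0.15. Stat5b and Stat5a, which carry the IL-2, IL-7 and IL-15 signals, differed in sign. Stat5b had a difference of -1.02 (unadjusted p = 0.0622) over all pairs and of -1.49 in the alpha4-low pairs (unadjusted p = 0.0100, limma adjusted p = 0.842). Another Stat5b probe set gave 0.10 over all pairs. Stat5b read 797 and 627 in polyclonal samples 2 and 3 and 104 to 244 on the other arrays, the same 2 samples in which Il21r was high. Stat5a read above the partner in 4 of 4 pairs, with a difference of 0.90 that did not pass (limma adjusted p = 0.9998).

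Feedback inhibitors of these pathways and genes induced by them were followed next. Of 10 inhibitors 9 were tested and none passed (0 higher, 0 lower in each comparison). The difference between subclasses was positive for 9 of 9, from 0.07 to 3.92, with a median of 0.78 against -0.10 over all probe sets, of which 45.7% were positive. Over all pairs 5 of 9 were positive, with a median of 0.0035, and the subclass difference rests on 1 alpha4-high pair. Socs2, a STAT5-induced inhibitor, had 23.0 in expansion 1, under the background of that array (46.6), where the partner had 204, and 683, 378 and 498 against 379, 194 and 205 in the alpha4-low pairs. Its difference of differences was 3.92 (limma adjusted p = 0.112), a size that is not exact because of that value, and further probe sets gave -0.18 and 0.02. Cish, the most direct STAT5 target, had an all-pairs difference of 0.56, with -0.15 in pair 1 and -0.58, 1.71 and 1.26 in pairs 2 to 4. Among 12 target and survival genes, all tested, none passed (0 higher, 0 lower). Bcl2, the survival gene that IL-7 and IL-15 sustain, read 2470 in expansion 1 against 9356 in its partner, while the alpha4-low expansions read 21706, 34356 and 26419 and their partners 24264, 24776 and 21452. The alpha4-low difference was 0.20. Its difference of differences was 2.12 (unadjusted p = 0.00631, limma adjusted p = 0.428) and from 0.51 to 1.98 on 4 other tested probe sets. Bcl2l11, the gene of the death factor Bim that opposes Bcl2, was likewise at 2.48 (unadjusted p = 0.00306, limma adjusted p = 0.333), and on its dimmest tested probe set at -1.19. Mcl1, another survival gene, differed by 0.28 over all pairs on its brightest probe set and by -0.28 on another.

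Of 16 regulators of the receptor genes 15 were tested, and none passed (0 higher, 0 lower in each comparison). Eomes and Tbx21, the T-box factors that drive Il2rb, had all-pairs differences of -0.10 and -0.34. In the difference between subclasses the largest sizes were Id3 (-2.87), Lef1 (2.31), Foxo3 (2.22) and Klf2 (-1.91), with limma adjusted p between 0.547 and 0.704. Lef1, a factor of less differentiated memory cells, had a signal of 238 in expansion 1, where the partner had 1642. Over all pairs Lef1 differed by -1.02 (limma unadjusted p = 0.0441, adjusted p = 0.9998). In the alpha4-low pairs Id3 differed by -1.37 (limma unadjusted p = 0.0483, adjusted p = 0.966) and Klf2 by -0.95 (limma unadjusted p = 0.0405, adjusted p = 0.965).

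**Figure D4:**
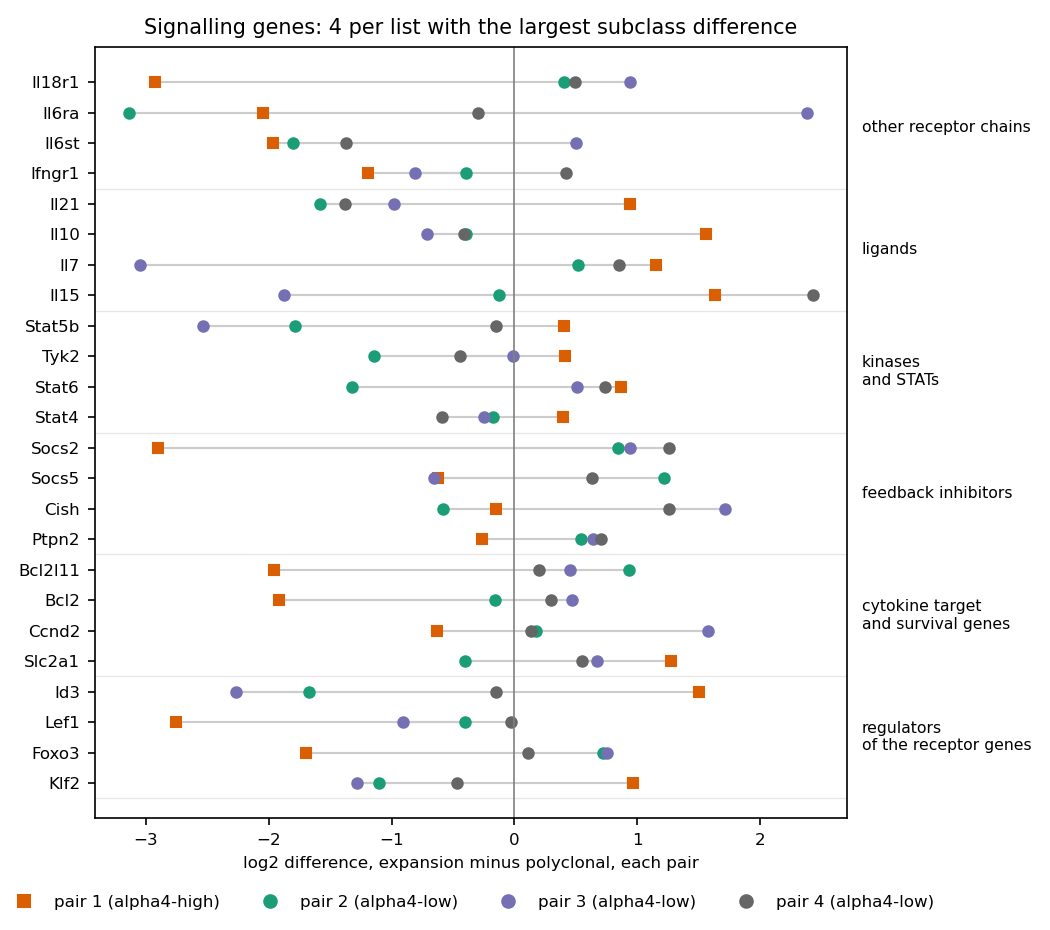
Log2 difference of expansion minus polyclonal in each of the 4 pairs for 24 signalling genes, the 4 of each list with the largest difference between subclasses. Pair 1 (squares) lies apart from the alpha4-low pairs (circles) for Il18r1 (-2.93 against 0.40, 0.94 and 0.49) and Socs2 (-2.90, from a value under background, against 0.84, 0.94 and 1.26), and no gene of the plot passed after adjustment.

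The genes whose signal ran most like a receptor over the 8 arrays were listed as a description. All 8 points share the same arrays and mice, and no test applies. For Il7r the highest Pearson r belonged to Elovl7 (0.97), Kbtbd11 (0.97), Tial1 (0.95), Pdzd2 (0.95) and Evi5 (0.95). For Il2rb they were Abi3bp (0.91), Gm2137 (0.90), Bub1b (0.90), Ccna2 (0.89) and Gid4 (0.88). For Il4ra they were 6820431F20Rik (0.99), Noc2l (0.98), Dnase1l2 (0.98), Xab2 (0.98) and Iqsec1 (0.98). For Il12rb2, which lay under background throughout, they were Xaf1 (0.99), Mvk (0.98), Ankrd13c (0.98), Ssbp4 (0.97) and Tcn2 (0.97).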

How the data were processed

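Total RNA of the sorted cells was amplified by 2 rounds of linear amplification, biotinylated and hybridised to 8 arrays, per the labels' protocols. The ratio of 3' to 5' signal of the actin control ran from 34.9 (polyclonal sample 3) to 89.7 (polyclonal sample 4). That of the Gapdh control ran from 2.78 (expansion 3) to 8.41 (polyclonal sample 2). This 3' bias was strong and unequal, and its part in differences between probe sets or arrays was not tested. The deposited values are linear signal intensity per probe set, computed by the MAS5 algorithm according to the submitters' processing notes (per the labels). The trimmed mean of each array (2% off each end) was 500, so all arrays had been scaled to the same trimmed mean. Their medians still ran from 46.5 to 75.1. Signals were taken as log2(value + 5), so that fold changes of dim genes are understated. A probe set was tested where its mean log2 value was above the median, a signal of about 45.3. That left 22518 of 45101 after 64 control probe sets were set aside. limma 3.58.1 (R 4.3.3) fitted each probe set with mouse as a fixed block and an intensity trend. The first model had 3 residual degrees of freedom, and the second, with separate terms for the subclasses, had 2. Purity as a covariate left fewer in each. Two-sided p-values were adjusted by Benjamini-Hochberg over all tested probe sets and a threshold of 0.05. The test was checked on simulated data.

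Pairs come from the same mouse, and the correlations of the deviations of same-numbered samples from their group means were 0.374, 0.0771, 0.214 and 0.338. Between samples of different mice they ran from -0.347 to 0.301. Expansion 3 with polyclonal sample 2 (0.301) and expansion 2 with polyclonal sample 4 (0.131) were above the values of their own pairs. The alpha4-high subclass is 1 pair, assumed to vary like the others, so p-values of the subclass difference rest on that assumption. No pair of arrays held identical values. Probe sets were named from the platform annotation, where 34958 have 1 gene, 932 have several and 9211 are not listed. Of those with 1 gene, 34754 were matched to RefSeq genes. Promoter sequences are from RefSeq, with the bases after the first annotated base of the gene removed.

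The receptor genes and the gene lists were chosen with earlier results of these data known. The text gives every measured receptor gene. Per list it names some, not all, of the up to 4 genes with the largest differences in each comparison. Among those not described elsewhere are Il6ra (-0.78), Il13ra1 (0.67), Slc2a1 (0.52) and Pim2 (-0.51), all over all pairs. Crlf2, Il10rb, Jak1, Stat5a, Mcl1, Eomes, Tbx21, Gfi1, Foxo1, Gabpa and Ets1 were added for their known roles after their values were seen. Where the text names a list gene without a probe set, the brightest tested one is meant. Alternatives were other pseudocounts (1 and 32), no filter, quantile and median scaling, other variance models, no replicate block, purity as a covariate, the mean over probe sets, and leaving out each pair.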

Additional observations from a re-analysis of the deposited data

Results flagged for a closer look

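Il15ra on its dimmer probe set had 1 expansion far from the others. Expansion 4 read 21.5, under the background of its array (33.7), while expansions 1 to 3 read between 74.4 and 78.5. The gap to its nearest neighbour was 0.956 of the range of the group, where 0.829 is the 95% limit for 4 samples (Dixon's test). Of 26 groups of values examined this was the only 1 past the limit, and chance alone passes about 5% of groups. The brighter Il15ra probe set read 301 in expansion 4, inside the range of the other expansions.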

How the results depend on the processing

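No receptor probe set passed under any setting: 39 of 39 alternative counts were 0, including the 3 with no replicate block. Over all probe sets the calls for all pairs were 0 in every setting that kept pair 1. They were 20 without pair 1, which leaves only the alpha4-low pairs. Calls ranged from 0 to 148 for the alpha4-low pairs and from 0 to 266 for the difference between subclasses. Of 324 alternative receptor differences none passed, the lowest limma adjusted p being 0.174, and 40 had the opposite sign. Median scaling moved the median subclass difference of all probe sets from -0.10 to 0.17. The causes of the sign changes were not tested.

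Over all pairs, purity as a covariate gave 0.34 for Il10ra, 0.42 for Il15ra and -0.18 for Il7r. Leaving out the pairs with a polyclonal sample under 80% pure, chosen after seeing the data, gave 0.51 for Il10ra, 0.37 for Il15ra, 0.19 for Il21r, 0.13 for Il4ra and -0.22 for Il7r. Quantile normalization gave -0.15 for Il7r and 0.026 for Il12rb1, a pseudocount of 32 gave 0.016 for Il12rb1, and the mean over probe sets gave -0.18 for Il7r. In the alpha4-low pairs purity gave 0.30 for Il15ra, 0.80 for Il21r, 0.56 for Il2ra and -0.66 for Il2rb. There Il12rb1 was 0.011 with a pseudocount of 32, 0.077 with quantile and 0.0080 with median scaling, and the mean over probe sets of Il7r was -0.051. For the difference between subclasses, no replicate block gave 0.82 for Il21r and 0.29 for Il4ra, purity gave 1.88 for Il21r, and the mean over probe sets gave 1.36 for Il4ra. Il12rb1 was there 0.21 with quantile and 0.17 with median scaling.

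Leaving out 1 pair, the all-pairs difference ranged from -0.41 to 0.33 for Il10ra, from -0.56 to 0.45 for Il12rb1, from -0.53 to 0.36 for Il15ra, from -0.51 to 0.37 for Il4ra and from -0.038 to 0.29 for Il7r, and without a change of sign from -1.43 to -0.20 for Il2ra and from -1.43 to -0.45 for Il21r. In the alpha4-low pairs it ranged from -0.86 to 0.66 for Il12rb1, from -0.95 to 0.12 for Il15ra, from -0.98 to 0.35 for Il4ra, from -0.62 to 0.41 for Il2ra and from -0.24 to 0.54 for Il2rb, and from -1.91 to -0.45 for Il21r with no change of sign. The subclass difference of Il12rb1 ranged from -0.90 to 0.62. Without pair 1 the difference between subclasses has no value.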
